A study of Mus musculus with 24 samples.

Results

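In mouse choroid, 8 of the Toll-like receptor genes (Tlr1, Tlr2, Tlr3, Tlr4, Tlr6, Tlr7, Tlr8 and Tlr9), the co-receptor gene Cd14 and the adaptor gene Myd88 were followed across genotype and laser treatment. These 10 genes were chosen by symbol, matched to their Ensembl identifiers, out of 56065 genes in the table of normalized counts. All 10 were found and read in all 24 libraries. Choroid here is the complex of retinal pigment epithelium (RPE), choroid and sclera left after the retina was dissected away. The libraries came from adult mice on a C57BL/6J background, of both sexes, either wild type or homozygous for a deletion of the first exons of Ceacam1 (Ceacam1-/-), a cell adhesion receptor of endothelial and myeloid cells. Both genotypes are littermates from heterozygous matings and the deletion is present in every cell type, so an effect of it cannot be assigned to one of them. There were 4 wild type and 4 Ceacam1-/- libraries without laser, and 9 wild type and 7 Ceacam1-/- libraries with laser. Laser means spots from a frequency-doubled Nd:YAG laser under ketamine and xylazine anaesthesia, a model in which new vessels grow from the choroid. The labels carry the same treatment text for every library, and they give neither the time between laser and sampling nor the age of the mice. The labels do not say that each library is a separate animal, so the p-values below measure the spread between these libraries only.

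Toll-like receptors are membrane proteins that bind conserved microbial molecules and molecules released from damaged tissue. TLR1, TLR2, TLR4 and TLR6 sit at the cell surface, where TLR2 pairs with TLR1 or TLR6 to bind lipopeptides and CD14 passes lipopolysaccharide to TLR4. TLR3, TLR7, TLR8 and TLR9 sit in endosomes and bind nucleic acids. All of them except TLR3 signal through the adaptor MyD88, which leads to activation of NF-kB, while TLR3 and internalized TLR4 use the adaptor TRIF. In the eye these genes are best known from microglia, macrophages and RPE cells.

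Tlr1 (ENSMUSG00000044827, chr5:65082022-65090941) and Tlr6 (ENSMUSG00000051498, chr5:65108704-65203497) are neighbours on chromosome 5 of GRCm39 (GENCODE annotation), and Tlr8 (ENSMUSG00000040522, chrX:166024184-166047325) and Tlr7 (ENSMUSG00000044583, chrX:166086758-166113605) on chromosome X, all on the minus strand. Tlr3 (ENSMUSG00000031639, chr8:45848702-45864117, minus strand), Tlr2 (ENSMUSG00000027995, chr3:83743576-83749074, minus strand), Tlr4 (ENSMUSG00000039005, chr4:66745783-66849936, plus strand), Tlr9 (ENSMUSG00000045322, chr9:106099797-106104082, plus strand) and Myd88 (ENSMUSG00000032508, chr9:119165000-119170486, minus strand) have no other member beside them.

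Tlr1 and Tlr6 are 17763 bases apart in the same orientation, and parts of their coding sequence are nearly the same, which limits how well reads can be assigned to one or the other. Over 1328 aligned bases their transcripts were 88.8% identical, the longest shared run was 229 bases, and 603 of the 3016 words of 31 bases in the Tlr1 transcript also occurred in the Tlr6 transcript. That run is coding sequence of exon 4 of Tlr1 (GRCm39, chr5:65082880-65083108, minus strand) and of exon 2 of Tlr6 (chr5:65111171-65111399, minus strand). It is shown because a read from within it fits both genes equally well:
Tlr1 and Tlr6: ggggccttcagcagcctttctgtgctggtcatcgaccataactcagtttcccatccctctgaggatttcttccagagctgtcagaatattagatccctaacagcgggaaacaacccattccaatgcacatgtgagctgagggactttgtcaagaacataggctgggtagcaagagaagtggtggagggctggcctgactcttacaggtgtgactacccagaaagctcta
The next 60 coding bases of Tlr1 (chr5:65082820-65082879) and Tlr6 (chr5:65111111-65111170) differ at 2 positions, in capitals:
Tlr1: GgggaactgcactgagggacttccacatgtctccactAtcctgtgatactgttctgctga
Tlr6: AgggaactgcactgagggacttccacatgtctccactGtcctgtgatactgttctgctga
Elsewhere the genes can be told apart. A window of 60 coding bases at the same offset in Tlr1 (chr5:65083468-65083527) and Tlr6 (chr5:65111759-65111818) differs at 20 positions, in capitals:
Tlr1: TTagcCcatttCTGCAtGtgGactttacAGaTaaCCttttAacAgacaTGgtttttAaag
Tlr6: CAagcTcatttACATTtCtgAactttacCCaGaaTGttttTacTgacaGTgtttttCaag
The values of Tlr1 and Tlr6 are therefore uncertain in how shared reads were split between them. No pair of the other receptors had a shared run as long as a 31-base word, and Tlr7 and Tlr8, which also lie side by side on chromosome X, were 66.2% identical over 473 bases.

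The 250 bases before the start of 1 transcript per gene, the canonical one of the annotation, were searched on both strands for 4 short motifs of factors active in myeloid and inflammatory transcription. Other annotated transcripts start further upstream for Tlr1 (16 bases), Tlr8 (43 bases), Tlr3 (693 bases) and Tlr6 (86107 bases), so that for these 4 the window lies partly or wholly inside the gene. The core GAGGAA of PU.1, the main myeloid transcription factor, occurred before Tlr2, Tlr4, Tlr8 and Tlr9, that is in 4 of 10 genes, and in 23.3% of 15737 promoters of the same length. A motif of NF-kB (GGG, then A or G, any 2 bases, 2 bases that are C or T, and CC) occurred before Tlr2 and Tlr3 and in 8.43% of promoters. The AP-1 motif TGANTCA occurred before Tlr9 and Cd14 and in 4.98%, and the core of the interferon response element (TTTC blocks with any 2 bases between them) before none of the 10 and in 3.16%. The promoters of Tlr2 and Tlr8 are shown, each with the PU.1 core in capitals as it reads on the strand of the gene, because Tlr2 was the only one with both the PU.1 core and the NF-kB motif and Tlr8 was among the genes that rose with laser. Tlr2 (GRCm39, chr3:83749075-83749324, minus strand) has 3 overlapping NF-kB matches between 14 and 4 bases before that transcript start:
Tlr2: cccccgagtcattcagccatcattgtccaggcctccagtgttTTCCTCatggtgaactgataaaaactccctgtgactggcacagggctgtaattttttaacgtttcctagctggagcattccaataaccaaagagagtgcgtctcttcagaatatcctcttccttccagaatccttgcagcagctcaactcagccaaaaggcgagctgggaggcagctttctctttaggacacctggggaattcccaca
Tlr8 (chrX:166047283-166047532, minus strand) has the PU.1 core between 120 and 115 bases before the start of its canonical transcript, and the last 43 bases of the window lie inside the annotated gene:
Tlr8: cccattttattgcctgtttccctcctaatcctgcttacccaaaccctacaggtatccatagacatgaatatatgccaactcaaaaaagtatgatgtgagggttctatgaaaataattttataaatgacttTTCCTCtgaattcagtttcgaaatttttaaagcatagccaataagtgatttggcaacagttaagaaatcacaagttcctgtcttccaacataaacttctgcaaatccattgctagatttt
A match is a stretch of letters and not a measured binding site.

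Ceacam1 itself was read first, as a check of the genotype labels. The 4 wild type libraries without laser held 958, 5027, 1242 and 4596 normalized counts (libraries 21, 22, 26 and 27), and the 4 Ceacam1-/- libraries 405, 505, 508 and 1171 (libraries 23, 24, 25 and 28). With laser, wild type libraries ranged from 774 to 8367 (median 996) and Ceacam1-/- libraries from 67.8 to 905 (median 335). Levels were lower in Ceacam1-/- by 1.95 on the log2 scale without laser (SE 0.60) and by 2.17 with laser (SE 0.52), but the groups overlapped in both cases and neither difference passed the test over all genes (limma with Benjamini-Hochberg adjustment, adjusted p = 0.999 and 0.104). With the range of the library number (1 to 7 or 11 to 19) as a term, Ceacam1 was lower with laser by 2.18 (SE 0.54, limma, adjusted p = 0.0233). That fit was chosen after seeing the data, and 9.34% of all genes were called lower in it. The table holds 1 value per gene and does not separate the deleted exons from the rest. In each group the library with the most Ceacam1 also had the highest sum of 5 surface epithelium genes. These were libraries 22 (320230), 28 (438646), 19 (124047) and 15 (443349). Library 23 had the least Ceacam1 of its group, but a surface epithelium sum of 11935, above libraries 24 and 25 (393 and 3459). The part of surface epithelium in the Ceacam1 level was not tested.

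The labelled tissue was checked against marker lists. The summed level of 6 RPE genes lay between 30852 and 689073 normalized counts, with Ttr the most abundant and Best1 low throughout (12.4 to 75.3). Endothelial genes (8 genes, 8606 to 46354) and melanocyte genes (5 genes, 9580 to 184403) were present in all libraries. Rod photoreceptor genes, which belong to the retina, ranged from 3118 to 979716 (8 genes). A set of 3 Ceacam1-/- laser libraries, numbers 14, 15 and 18, stood apart. Their photoreceptor sums were 520980 to 979716 against 7222 to 137202 in the other 4 Ceacam1-/- laser libraries. Their sums were lower for 13 myeloid genes (17067 to 28110 against 63936 to 93152), endothelial genes (8606 to 17784 against 27589 to 41804), melanocyte genes (9580 to 27412 against 91629 to 184403), RPE genes (30852 to 52235 against 116684 to 200007) and 5 fibroblast genes (37843 to 97647 against 352019 to 599838). These 3 are all the Ceacam1-/- laser libraries numbered above 10, while the wild type laser libraries are 3 numbered 1 to 3 and 6 numbered 11 to 19, and what the numbers stand for is not given. The tests of the 10 genes and the counts of calls in Ceacam1-/- laser libraries are therefore given with and without these 3. The 3 were not alike in all lists. Library 15 had a surface epithelium sum of 443349, against 132 and 477 in libraries 14 and 18. Its muscle sum was 105945, against 10663 and 58077. Libraries 21 and 23, without laser, also had high photoreceptor sums (524258 and 570380).

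Levels of different genes were compared per kilobase of the annotated transcript. In wild type choroid without laser, Myd88 was highest, at 186 ± 60.3 normalized counts per kb (SD, n = 4), followed by Cd14 (122 ± 36.3), Tlr3 (115 ± 40.4), Tlr4 (80.6 ± 42.1) and Tlr2 (67.7 ± 18.5), and each of these overlapped its neighbour in the order. A clear step down followed to Tlr7 (10.7 ± 9.98), Tlr1 (8.49 ± 7.22) and Tlr6 (6.48 ± 2.32), and a further one to Tlr8 (2.01 ± 0.953) and Tlr9 (0.547 ± 0.662). The order in Ceacam1-/- choroid without laser was nearly the same, with Tlr3 before Cd14 and Tlr1 before Tlr7. With laser in wild type mice Cd14 came first, at 654 ± 270 per kb (n = 9), with no overlap with Myd88. Myd88 followed at 311 ± 47.0, and Tlr2 (186 ± 56.7) moved ahead of Tlr3 (128 ± 37.8) and Tlr4 (127 ± 44.4). In Ceacam1-/- laser libraries the first 7 genes came in the same order, with every neighbouring pair overlapping.

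**Figure D1:**
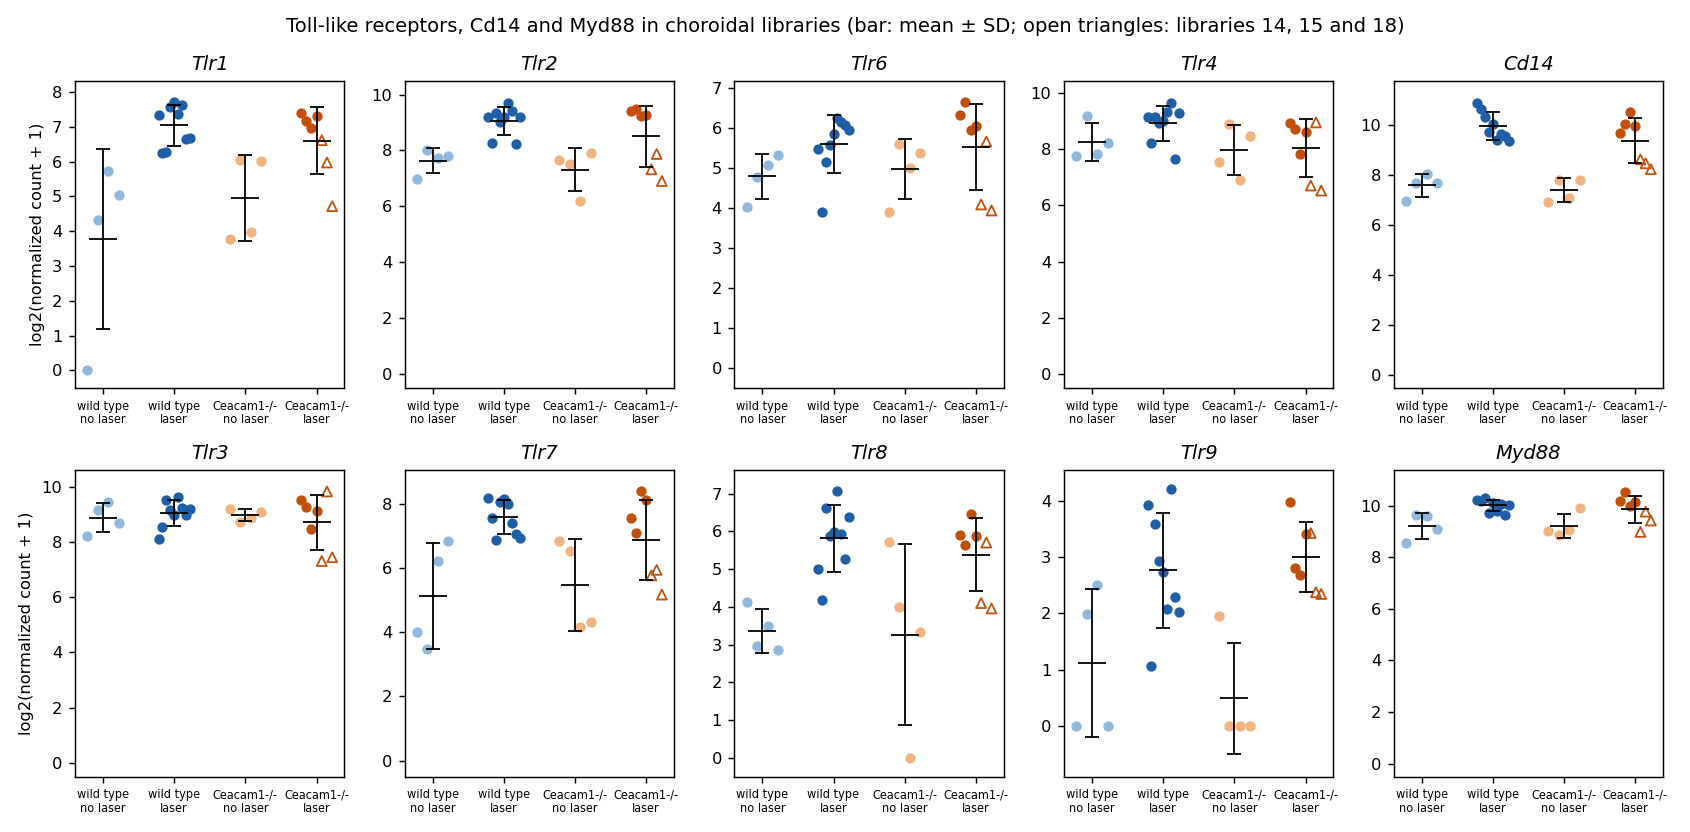
Each panel shows 1 gene, with log2 of the normalized count plus 1 on the vertical axis and the 4 groups on the horizontal axis. Points are libraries, bars are the mean ± SD on this scale, and open triangles are Ceacam1-/- laser libraries 14, 15 and 18, which lie below the other Ceacam1-/- laser libraries for Cd14, Myd88, Tlr1, Tlr2, Tlr6 and Tlr7. The 9 wild type laser libraries lie above all 4 without laser for Tlr1, Tlr2, Tlr7, Tlr8 and Cd14.

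The first comparison asked which of these genes differ between laser-treated and untreated choroid of wild type mice. Cd14, Tlr1, Tlr7 and Tlr8 rose with laser, Tlr2 and Myd88 missed the threshold narrowly, and Tlr3, Tlr4 and Tlr6 did not pass. Of the 10 genes, 9 had the mean of at least 10 normalized counts needed for the test, and 4 of these 9 were called higher at an adjusted p under 0.05. Leaving out 1 library at a time left between 1 (Cd14 alone, without library 21) and 5 of them called, with 2 without library 22. Over all 19950 genes tested, 844 were called higher, which is 4.23%. The median log2 fold change of the 9 was 1.43, against -0.10 over all genes tested. All 9 wild type laser libraries lay above all 4 without laser for 5 of the 9 genes, and for 4.5% of all genes tested.

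In Ceacam1-/- mice the same comparison called 1 of the 9 genes, Cd14. Over all genes 413 of 19950 were called higher, or 2.07%. A fit of only the 11 libraries compared called 0 of the 9 genes, and 36 of 20299 genes over all were higher. The median log2 fold change of the 9 was 1.19, against 0.02 over all genes. The laser and no laser groups were fully separated for Cd14 alone among the 9, and for 1.17% of all genes. Without libraries 14, 15 and 18, which was chosen after seeing the data, 5 of the 9 were called higher (Cd14, Tlr2, Tlr7, Tlr8 and Myd88), against 7.6% of all genes, and the median of the 9 was 2.04. Libraries were left out on the laser side only. Untreated Ceacam1-/- library 23 stayed in that fit, although its photoreceptor sum (570380) was above that of library 15 (520980).

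**Figure D2:**
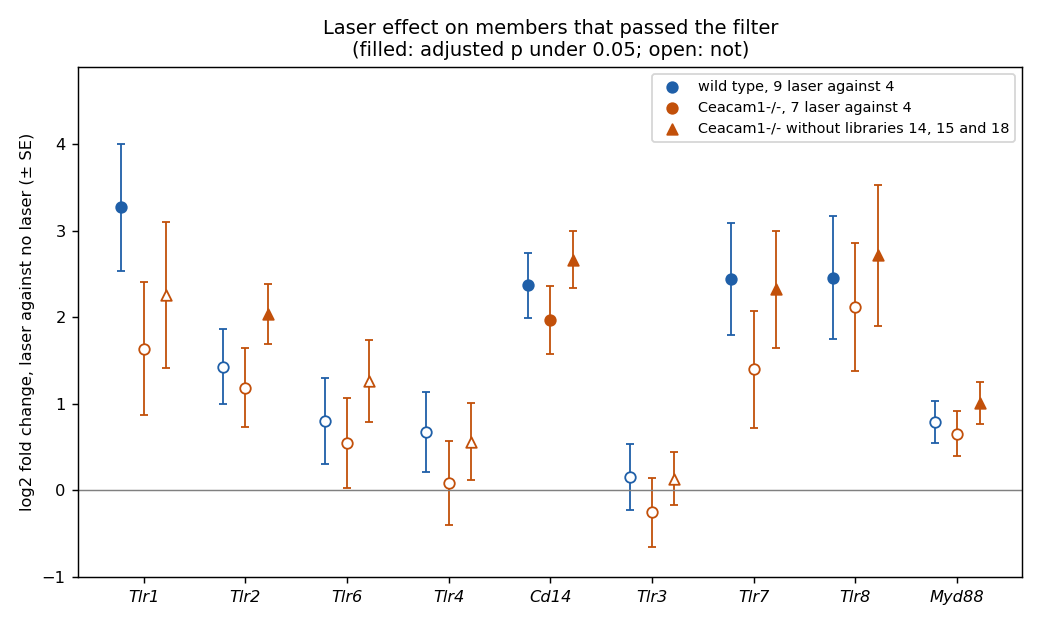
Log2 fold changes of laser against no laser (vertical axis, ± SE) for the 9 genes that passed the filter (horizontal axis), in wild type (blue circles), in Ceacam1-/- (orange circles) and in Ceacam1-/- without libraries 14, 15 and 18 (orange triangles). Filled symbols passed an adjusted p of 0.05. Cd14 is filled in all 3 fits, and each of the 9 orange triangles lies above its orange circle.

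Of the lipopeptide receptors, Tlr2, the shared partner of the pair, held 126, 259, 212 and 220 normalized counts in the 4 wild type libraries without laser. With laser it held between 301 and 836 (median 585, n = 9). The groups did not overlap and the mean was 2.75 times as high, but with a log2 fold change of 1.43 (SE 0.44) the difference did not pass (limma, adjusted p = 0.0570), though it did without library 17 (1.54, adjusted p = 0.0415). Ceacam1-/- libraries held 201, 184, 71.9 and 237 normalized counts of Tlr2 without laser. With laser, libraries 4 to 7 held 684, 723, 601 and 617, while libraries 14, 15 and 18 held 159, 234 and 119, within the range of the untreated libraries. Laser against no laser gave a log2 fold change of 1.19 (SE 0.46, limma, adjusted p = 0.142), and without those 3 libraries it was 2.04 (SE 0.35, adjusted p = 0.000507).

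Tlr1 was near the floor of the table in untreated wild type choroid, at 0, 18.9, 52.2 and 32.2 normalized counts. In the 9 wild type laser libraries it held between 75.4 and 207 (median 160), so that the groups did not overlap. Its log2 fold change, 3.27 (SE 0.73, limma, adjusted p = 0.00854), was the largest among the 9 genes, but it depends on library 21, which is at 0. Without library 21 it was 2.01 (adjusted p = 0.0567). Tlr1 in Ceacam1-/- mice held 12.6, 64.9, 14.9 and 64.0 without laser and between 25.4 and 168 with laser (median 124, n = 7), and the log2 fold change of 1.64 (SE 0.77) did not pass with all libraries (limma, adjusted p = 0.231) or without libraries 14, 15 and 18 (2.26, SE 0.84, adjusted p = 0.0945). Tlr6, the other partner of Tlr2, held 15.2, 26.1, 32.5 and 38.8 without laser and between 13.8 and 75.2 with laser in wild type (median 56.9), with library 2 below every untreated library. Its log2 fold changes were 0.80 (SE 0.50, adjusted p = 0.375) in wild type and 0.55 (SE 0.52, adjusted p = 0.586) in Ceacam1-/- mice by limma, or 1.27 (SE 0.47, adjusted p = 0.0959) in the latter without libraries 14, 15 and 18. The annotated span of Tlr6 overlaps that of Fam114a1 on the opposite strand, a gene at a median of 2046 normalized counts. Whether their exons overlap was not examined, and no source used here says that reads were assigned by strand.

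Cd14 (GRCm39, chromosome 18, bases 36858120 to 36859851), the lipopolysaccharide co-receptor of monocytes and macrophages, had the lowest p-value of the 9 in both genotypes. Wild type libraries without laser held 124, 204, 269 and 206 normalized counts. The 9 with laser held between 666 and 1918 (median 861), all above the highest untreated library, and their mean was 5.35 times as high. The log2 fold change was 2.37 (SE 0.38, limma, adjusted p = 0.000379, rank 101 of 19950 genes by p). Cd14 in Ceacam1-/- mice held 121, 223, 135 and 225 without laser. Libraries 4 to 7 held 842, 1061, 1489 and 1022 with laser, and libraries 14, 15 and 18 held 399, 358 and 303, which is lower but still above every untreated library. Their log2 fold change was 1.97 (SE 0.39, limma, adjusted p = 0.00727), or 2.67 (SE 0.33, adjusted p = 2.04e-05) without the 3 libraries. In a fit of only the 11 libraries compared, Cd14 did not pass (limma, adjusted p = 0.140).

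Tlr4, the lipopolysaccharide receptor itself, moved far less than Cd14. It held 216, 585, 225 and 301 normalized counts in untreated wild type libraries and between 198 and 804 with laser (median 563), where library 17 was the lowest of all 13. Its log2 fold change was 0.68 (SE 0.47, limma, adjusted p = 0.427). Ceacam1-/- libraries held 187, 473, 120 and 354 without laser and between 91.1 and 494 with laser (median 394), and the log2 fold change was 0.08 (SE 0.49, adjusted p = 0.939), or 0.57 (SE 0.44, adjusted p = 0.477) without libraries 14, 15 and 18. With all libraries its sign in Ceacam1-/- mice turned when single libraries were left out and under quantile normalization. Of the Ceacam1-/- laser libraries, library 15 held the most Tlr4, 494, and libraries 14 and 18 the least, 103 and 91.1. The annotated span of a non-coding gene, Gm57137, overlaps that of Tlr4 on the same strand, at a median of 88.6 normalized counts. Overlap of their exons was not examined.

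Of the endosomal receptors, Tlr7 and Tlr8 bind single-stranded RNA, Tlr3 double-stranded RNA and Tlr9 DNA. Tlr7 held 15.0, 10.2, 74.1 and 114 normalized counts in untreated wild type libraries and between 117 and 290 with laser (median 189). The highest untreated and the lowest laser library are thus close, although they do not overlap. The log2 fold change was 2.45 (SE 0.65, limma, adjusted p = 0.0275). It was 2.07 (adjusted p = 0.145) without library 21 and 1.89 (adjusted p = 0.140) without library 22, the lowest untreated libraries. Tlr7 in Ceacam1-/- mice held 115, 92.3, 16.8 and 18.9 without laser and 190, 135, 336 and 276 in laser libraries 4 to 7, while libraries 14, 15 and 18 held 53.7, 60.7 and 35.1. Their log2 fold change was 1.398 (SE 0.68, limma, adjusted p = 0.251), and 2.32 (SE 0.67, adjusted p = 0.0319) without those 3.

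Tlr8 was the lowest of the called genes in abundance. It held 16.5, 6.83, 10.2 and 6.21 normalized counts in untreated wild type libraries, and between 17.2 and 133 with laser (median 60.3). The log2 fold change was 2.46 (SE 0.71, limma, adjusted p = 0.0446), so close to the threshold that leaving out any wild type library but 2 and 17 brought it above 0.05, with adjusted p up to 0.153 (2.29, without library 27). Tlr8 in Ceacam1-/- mice held 51.5, 15.0, 0 and 8.997 without laser and between 14.5 and 87.4 with laser (median 51.1), with a log2 fold change of 2.12 (SE 0.74, limma, adjusted p = 0.105). Untreated library 23, at 51.5, lies among the laser libraries, and without it the value was 2.94 (adjusted p = 0.0106). Without libraries 14, 15 and 18 it was 2.72 (SE 0.81, adjusted p = 0.0372). Library 15 held 51.1 normalized counts of Tlr8, and libraries 14 and 18 held 16.2 and 14.5.

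Tlr3 had the smallest log2 fold change by laser of the 9 genes in wild type mice. Untreated wild type libraries held 300, 571, 697 and 415 normalized counts and laser libraries between 276 and 803 (median 577), so that the laser libraries spanned the whole untreated range. Its log2 fold change was 0.16 (SE 0.38, limma, adjusted p = 0.832), an interval of -0.60 to 0.92 at 2 SE. For Ceacam1-/- mice it was -0.25 (SE 0.40, adjusted p = 0.755), with untreated libraries at 582, 423, 467 and 552 and laser libraries between 158 and 914 (median 554). Without libraries 14, 15 and 18 it was 0.14 (SE 0.30, adjusted p = 0.847), and without wild type library 21 the wild type value was -0.057, so no direction can be given. Of the Ceacam1-/- laser libraries, library 15 held the most Tlr3, 914, and libraries 14 and 18 the least, 158 and 174.

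Tlr9, a receptor for unmethylated CpG DNA, was under the filter of a mean of 10 and its values are near the limit of the table. It was above 0 in 2 of 4 untreated wild type libraries (0, 2.95, 4.66 and 0) and in 1 of 4 untreated Ceacam1-/- libraries (2.89 in library 23), but in all 9 wild type laser libraries (1.09 to 17.6, median 5.70) and all 7 Ceacam1-/- laser libraries (4.08 to 14.8, median 5.97), where the groups did not overlap. By a two-sided exact permutation test on log2 of the value plus 1, laser and no laser differed by 2.51 in Ceacam1-/- mice (p = 0.00606, adjusted over 4 tests 0.0242) and by 1.65 in wild type mice (p = 0.0392, adjusted 0.0783). Without libraries 14, 15 and 18 the difference in Ceacam1-/- mice was 2.73 (exact permutation p = 0.0286, the smallest that 4 against 4 libraries can give, adjusted 0.0783), so the call was lost. With the filter off, limma gave an adjusted p of 0.0531 in Ceacam1-/- and 0.206 in wild type mice.

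Myd88, the shared adaptor, was the most abundant member without laser and had the smallest SD relative to its mean among the wild type laser libraries (1037 ± 157). It held 369, 798, 766 and 546 normalized counts in untreated wild type libraries and between 798 and 1241 with laser (median 1080), with the lowest laser library (17) just below the highest untreated one (22). The log2 fold change was 0.79 (SE 0.25), which did not pass (limma, adjusted p = 0.0622). Myd88 in Ceacam1-/- mice held 513, 469, 529 and 951 without laser, 1162, 1493, 1025 and 1124 in laser libraries 4 to 7, and 504, 870 and 684 in libraries 14, 15 and 18. With all libraries the log2 fold change was 0.66 (SE 0.26, limma, adjusted p = 0.152), or 1.01 (SE 0.24, adjusted p = 0.00904) without these 3. The annotated span of Myd88 overlaps that of Acaa1a, a peroxisomal enzyme gene on the opposite strand at a median of 2350 normalized counts. Overlap of their exons was not examined.

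Markers of myeloid cells, which carry most of these receptors, moved in the same direction. Of 13 myeloid genes, 11 rose with laser in wild type mice and 8 in Ceacam1-/- mice (12 without libraries 14, 15 and 18), with median log2 fold changes of 2.21 and 1.55 (2.11). Their summed level was 10553 to 22017 in untreated wild type, 10687 to 14786 in untreated Ceacam1-/-, 49186 to 129355 in wild type laser and 17067 to 93152 in Ceacam1-/- laser libraries, and lysozyme (Lyz2) was the most abundant. None of the 13 was at 0 in all libraries. In bulk tissue, more cells of a type and more RNA per cell cannot be told apart. Set against that sum, Cd14 was at a median of 13.1 per 1000 myeloid counts without and 11.8 with laser in wild type, Tlr1 at 1.80 and 1.92, Tlr7 at 2.39 and 2.24, and Tlr8 at 0.486 and 0.763. Tlr6 was at 1.71 and 0.601, Tlr2 at 13.5 and 6.75, Tlr4 at 20.4 and 6.295, Tlr3 at 30.05 and 7.87, and Myd88 at 36.0 and 13.7. For Ceacam1-/- mice the medians without and with laser were 13.3 and 14.7 for Cd14, 2.77 and 2.25 for Tlr1, 4.297 and 2.49 for Tlr7, and 0.892 and 0.851 for Tlr8. They were 2.63 and 1.02 for Tlr6, 15.2 and 9.17 for Tlr2, 20.7 and 5.54 for Tlr4, 37.5 and 8.67 for Tlr3 and 45.3 and 17.9 for Myd88. The part of the myeloid level in the laser differences was not tested. Of 8 neutrophil genes, 4 were under the filter: Ly6g (0 in every untreated library and at most 4.14 with laser), Mpo (at most 4.43), Elane (at most 5.07) and Ngp (at most 10.6). The other 4 were above 0 in all 24 libraries. S100a8 rose in both genotypes and Csf3r, the most abundant, in wild type (and in Ceacam1-/- mice without libraries 14, 15 and 18), while S100a9 and Cxcr2 (15.6 to 94.8 over all libraries) did not pass. The neutrophil list summed to 101 to 176 in untreated wild type, 160 to 255 in untreated Ceacam1-/-, 276 to 1063 in wild type laser and 239 to 782 in Ceacam1-/- laser libraries, and its part in the laser differences was not tested. No B and plasma cell or T cell gene passed in either genotype with all libraries. Siglech, a gene of plasmacytoid dendritic cells and microglia, was between 18.3 and 269 in all libraries. The other genes of the plasmacytoid list summed to a level set by Cox6a2, which muscle expresses, and Cox6a2 fell in Ceacam1-/- mice (limma, adjusted p = 0.0481). Without libraries 14, 15 and 18 Cox6a2 did not pass, at a log2 fold change of -2.11 (SE 0.73, limma, adjusted p = 0.0715). Mast cell, endothelial, melanocyte, RPE, photoreceptor, muscle, lens and surface epithelium lists had no gene past the test in either genotype with all libraries, and 1 of 5 fibroblast genes, Lum, rose in both. All 5 fibroblast genes rose in Ceacam1-/- mice without libraries 14, 15 and 18, with a median log2 fold change of 2.38, as did Pmel of the melanocyte and Cd3e of the T cell list. The part of the fibroblast level in the member calls of that fit was not tested.

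**Figure D3:**
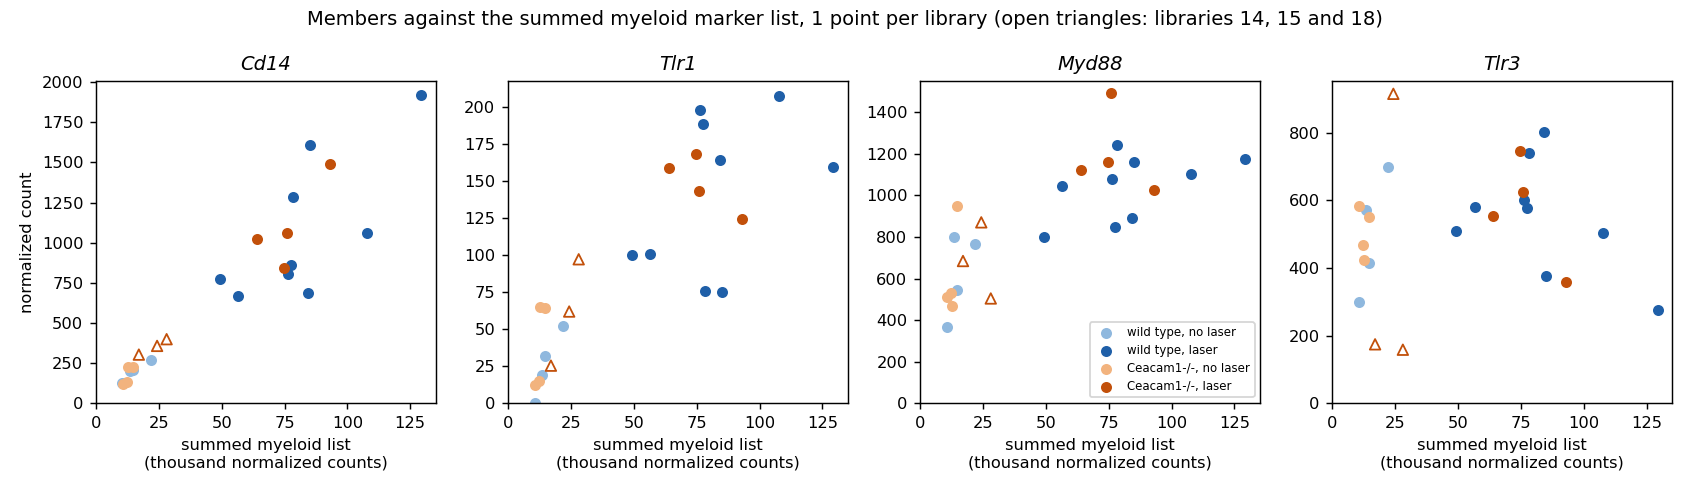
Normalized counts of Cd14, Tlr1, Myd88 and Tlr3 (vertical axes) against the summed normalized counts of 13 myeloid genes (horizontal axes, in units of 1000), with 1 point per library, coloured by group, and Ceacam1-/- laser libraries 14, 15 and 18 as open triangles. These 3 lie beside the untreated libraries at the left, at myeloid sums of 17067 to 28110, and Tlr3 spans a similar range at low and at high myeloid sums.

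The second question was whether laser had a different effect by genotype. None of the 9 genes had an interaction of laser and genotype past the threshold, and over all 19950 genes 0.0% were called (limma, 0 genes, with 1241 at an unadjusted p under 0.05). All 9 estimates were negative, from -1.63 for Tlr1 (SE 1.06, adjusted p = 0.640) to -0.14 for Myd88 (SE 0.36, adjusted p = 0.892), with a median of -0.40. Without libraries 14, 15 and 18 the median was 0.22 and 5 of 9 were positive, Myd88 among them (0.22, SE 0.32, limma, adjusted p = 0.999), so the sign rests on these libraries. The interval of Tlr1 at 2 SE ran from -3.75 to 0.49 with all libraries, and its estimate was -0.37 without wild type library 21.

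Genotype was then compared directly. Without laser, the comparison that bears on the deletion of Ceacam1 in resting choroid, none of the 9 genes passed and 0.0% of all 20057 genes were called (limma, 0 genes, with 307 at an unadjusted p under 0.05). Log2 fold changes of Ceacam1-/- against wild type lay between -0.32 for Tlr2 (SE 0.42) and 1.18 for Tlr1 (SE 1.24), both at an adjusted p of 0.999, with a median of -0.01. The value of Tlr1 rests on wild type library 21, at 0, and was -0.079 without it. The groups overlapped for all 10 genes. Ceacam1, the deleted gene, did not pass in this fit either (limma, adjusted p = 0.999). The absence of a call is therefore no evidence that a member is unchanged. The paper did report differentially expressed genes between untreated choroid of the genotypes, using DESeq2 with sex as a covariate.

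With laser, none of the 9 passed either with all 16 libraries and genotype alone, against 0.0202% of 19757 genes (4 genes, 2 in each direction). All 9 log2 fold changes were negative with all 16 libraries, from -0.89 for Tlr4 (SE 0.39, unadjusted p = 0.0344 and adjusted p = 0.195 by limma) to -0.08 for Tlr6 (SE 0.44, adjusted p = 0.931), with Cd14 at -0.59 (SE 0.34, adjusted p = 0.291). Without libraries 14, 15 and 18, 8 of 9 were positive, with Cd14 at 0.11 (SE 0.27), Tlr6 at 0.64 (SE 0.38) and Tlr4 alone negative at -0.41 (SE 0.32, adjusted p = 0.791). That fit sets Ceacam1-/- libraries 4 to 7 against wild type libraries of both number ranges. With the number range (1 to 7 or 11 to 19) as a term beside genotype, a fit chosen after seeing the data, all 9 values were negative, and Cd14 passed at -0.89 (SE 0.16, limma, adjusted p = 0.0166), against 9.34% of all genes called lower in the same fit. Tlr4 was at -0.996 (SE 0.39, adjusted p = 0.0760) and did not pass. Within the range 1 to 7, Cd14 was at 1287 to 1918 normalized counts in wild type and 842 to 1489 in Ceacam1-/- mice, which overlap. Within 11 to 19 it was at 666 to 1058 and, in libraries 14, 15 and 18, at 303 to 399. The direction for Cd14 by genotype with laser thus depends on how these libraries are treated. Of the 9, only Cd14 and Tlr4 were lower on average in Ceacam1-/- than in wild type mice within both ranges. Tlr1, Tlr2, Tlr3, Tlr6, Tlr7, Tlr8 and Myd88 were instead higher in Ceacam1-/- mice within 1 to 7 and lower within 11 to 19. Means in Ceacam1-/- and wild type mice within 1 to 7 were 75.7 and 30.4 for Tlr6 and 149 and 104 for Tlr1. Tlr2 was at 656 and 513 there, and Myd88 at 1201 and 1191. Within 11 to 19 the means were 26.6 and 62.5 for Tlr6 and 61.5 and 160 for Tlr1. Tlr2 was at 171 and 586 there, and Myd88 at 686 and 960.

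Other genes of the pathway were taken from 9 lists of 87 genes. Of 83 that passed the filter, 24 rose with laser in wild type mice and 17 in Ceacam1-/- mice (34 without libraries 14, 15 and 18), and none fell. Over all genes 4.23%, 2.07% and 7.6% were called higher in the same fits, so the last count is read against a larger share. Their median log2 fold changes were 0.67 and 0.44 (0.72), against -0.10 and 0.02 over all genes (-0.04). None was called for genotype with or without laser or for the interaction in the fits without a term for the number range.

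Of the remaining Toll-like receptors, Tlr13, which binds bacterial ribosomal RNA, rose in wild type from 33.3 to 97.7 normalized counts without laser to 210 to 549 with laser (log2 fold change 2.36, SE 0.44, limma, adjusted p = 0.00201). In Ceacam1-/- mice it did not pass (1.57, SE 0.46, adjusted p = 0.0580), with the range of laser libraries reaching down to 66.3, and it was called without libraries 14, 15 and 18. Tlr5 and Tlr12 did not pass in either genotype and Tlr11 was under the filter. Among 6 co-receptors and accessory receptors, Clec7a (dectin-1, a receptor for beta-glucans) and Ly86 (MD-1, the partner of RP105) rose in both genotypes. Clec7a was at 48.8 to 155 without and 365 to 1460 with laser in wild type (log2 fold change 3.26, SE 0.44, limma, adjusted p = 5.6e-05). Cd180 (RP105) rose in Ceacam1-/- mice by 2.70 (SE 0.55, limma, adjusted p = 0.00794), and in wild type it was at 1.71 (SE 0.52, adjusted p = 0.0577), with no interaction past the test. Cd36, the most abundant of this list, did not pass, and Ly96, which encodes the MD-2 subunit of the TLR4 complex, was at 0.92 (SE 0.31, limma, adjusted p = 0.0824) in wild type. All 6 but Cd36 rose in Ceacam1-/- mice without libraries 14, 15 and 18.

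Genes that handle endosomal receptors had the largest share of calls among the 9 lists in wild type, where 5 of 8 rose, namely Unc93b1, the chaperone that carries nucleic acid receptors to endosomes, and the proteases Lgmn, Ctsb, Ctsl and Ctss that cleave them there. Ctss rose most, from 1246 to 2076 without laser to 8067 to 17563 with laser (log2 fold change 2.94, SE 0.36, limma, adjusted p = 2.18e-05). The 4 proteases also rose in Ceacam1-/- mice, where Unc93b1 was at 0.92 (SE 0.33, limma, adjusted p = 0.117). There 6 of 8 rose without libraries 14, 15 and 18, Unc93b1 (1.55, SE 0.21, adjusted p = 4.17e-05) and the chaperone Hsp90b1 among them. Ctsb was the most abundant. These proteases serve general lysosomal degradation in macrophages as well.

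Between receptors and targets fewer genes were called. None of 10 further adaptors and kinases of the MyD88 arm (such as Tirap, Irak1, Irak4, Traf6 and Map3k7) passed in either genotype, also without libraries 14, 15 and 18, and their median log2 fold changes were -0.06 in wild type and -0.01 in Ceacam1-/- mice, close to the -0.10 and 0.02 of all genes. Ube2n, a ubiquitin-conjugating enzyme that works with TRAF6, was the most abundant of them. In the TRIF arm 1 of 7 rose in wild type, Ticam2 (TRAM, which links TLR4 to TRIF), by 2.11 (SE 0.53, limma, adjusted p = 0.0202). Of 11 NF-kB and IRF effectors Irf8, a transcription factor of monocytes and macrophages, rose in wild type by 1.97 (SE 0.39, adjusted p = 0.00301), and Nfkb1, Rela and the most abundant, Chuk, did not pass. Of 13 inhibitors 3 rose in wild type, the inhibitor subunit Nfkbie (1.31), the adaptor Pik3ap1 (1.83) and the phosphatase Inpp5d (1.21), and Pik3ap1 rose in Ceacam1-/- mice too (1.74, SE 0.34, adjusted p = 0.00589). Inpp5d was at -0.80 (SE 0.34, limma, adjusted p = 0.188) in Ceacam1-/- mice, or -0.17 (SE 0.27, adjusted p = 0.766) without libraries 14, 15 and 18. Nfkbia, the most abundant inhibitor, did not pass. No gene of the TRIF arm or of the effectors passed in Ceacam1-/- mice with all libraries. When libraries 14, 15 and 18 were left out, 2 of 7 genes of the TRIF arm rose there (Ripk1 and Ticam2), 2 of 11 effectors (Irf5 and Irf8) and 3 of 13 inhibitors (Irak3, Nfkbie and Pik3ap1).

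Targets of NF-kB rose in largest number. Of 14 tested, 7 rose in wild type (Il1b, Il6, Ccl2, Ccl3, Ccl4, Ptgs2 and Nos2) and 6 in Ceacam1-/- mice (the first 6 of these), with medians of 2.14 and 1.92. Ccl2, which attracts monocytes, was at 41.2 to 83.3 normalized counts without and 328 to 1702 with laser in wild type (log2 fold change 3.05, SE 0.40, limma, adjusted p = 4.86e-05), and at 58.4 to 121 and 286 to 1012 in Ceacam1-/- mice (2.56, SE 0.42, adjusted p = 0.00128). Ptgs2, the inducible cyclooxygenase, rose by 2.47 (SE 0.37, adjusted p = 0.000218) in wild type and 1.87 (SE 0.39, adjusted p = 0.0097) in Ceacam1-/- mice. Icam1, the most abundant target, did not pass with all libraries, while 9 of 14 rose in Ceacam1-/- mice without libraries 14, 15 and 18 (Icam1, Cxcl10 and Ccl5 in addition), and Il10 and Ifnb1 were under the filter. Of 11 endogenous ligands tested, Tnc (tenascin C), Fn1 (fibronectin), Vcan (versican) and S100a8, which is also on the neutrophil list, rose in wild type, and all but Vcan in Ceacam1-/- mice (6 of 11 without libraries 14, 15 and 18). Tnc rose from 312 to 575 without to 1896 to 8534 with laser in wild type (log2 fold change 3.44, SE 0.43, limma, adjusted p = 3.05e-05). Hmgb1 and decorin (Dcn), the most abundant, did not pass with all libraries, but both were called in Ceacam1-/- mice without libraries 14, 15 and 18.

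**Figure D4:**
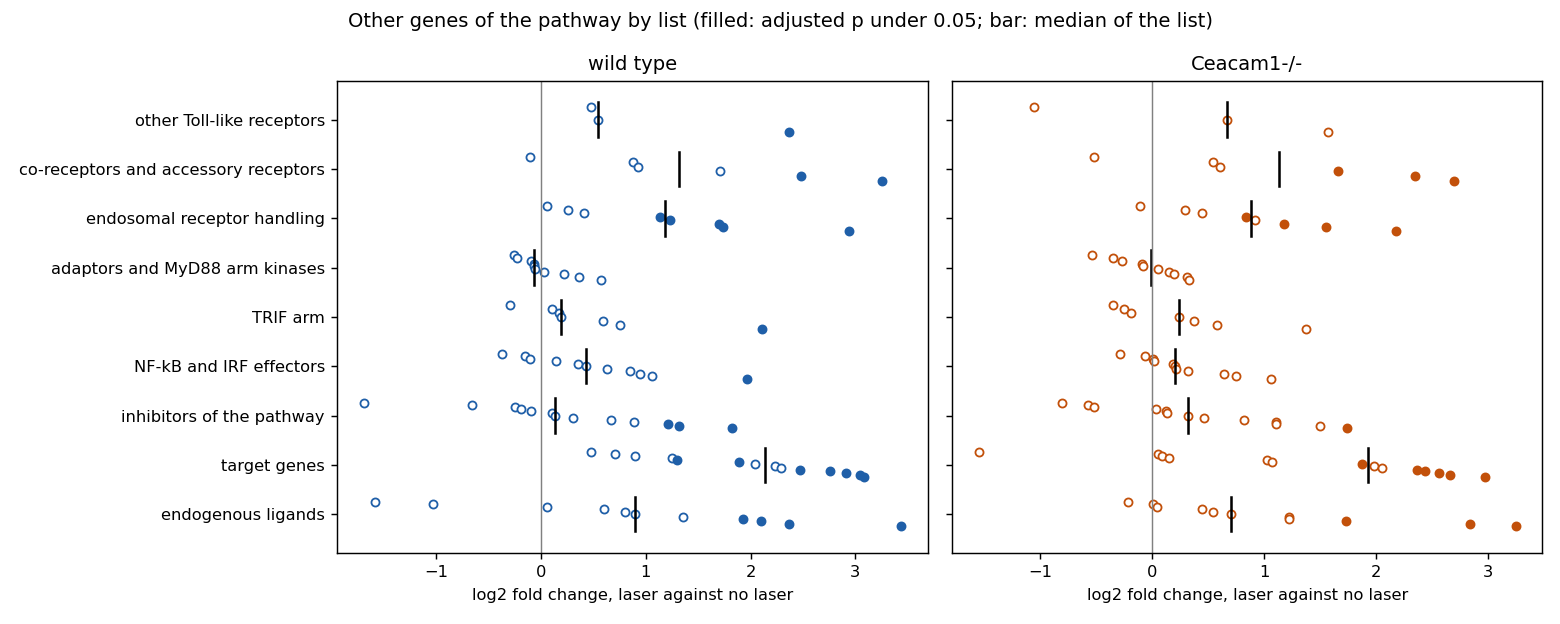
Log2 fold changes of laser against no laser (horizontal axes) in wild type (left) and Ceacam1-/- (right) for the tested genes of 9 pathway lists (vertical axis), where each point is a gene, filled if its adjusted p was under 0.05, and black bars are medians. In wild type the adaptors and MyD88 arm kinases centre on -0.06 with 0 filled points, and the target genes on 2.14 with 7 filled points.

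The genes whose pattern was most like that of each member were sought over the 24 libraries on the log2 scale after subtraction of each group's mean, so that they follow differences between libraries of the same group. Values of r are given as a description. Libraries of the same group also differed in retina and muscle content, and its part in r was not tested. Cd14 was most like Igf1 (Pearson r = 0.95), Sting1 (0.94) and Fcer1g (0.93), Tlr2 most like Pla2g4a (0.93), Stap1 and Tifab (both 0.92), and Tlr7 most like Ncf1 (0.85), Clec5a (0.80) and Ifi206 (0.79). Myd88 was most like Ctsh, Vasp and Cdc25b (0.92, 0.92 and 0.91) and Tlr4 most like Niban1, Ppfibp1 and Ncstn (0.92, 0.92 and 0.90). Tlr1 followed Clec4a1 (0.86), Psrc1 and Skap1 (both 0.83), Tlr3 followed Ripk2, Ctso and Vangl1 (0.88, 0.88 and 0.87), Tlr6 followed Gm42892, Notch2 and Cpa3 (0.90, 0.89 and 0.87), and Tlr8 followed Tmx3, Stau1 and Mfsd9 (0.86, 0.84 and 0.84). Among the members, Tlr2 and Tlr4 were the closest pair (0.78), and Tlr1 and Tlr8 the least alike (0.08).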

How the data were processed

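Choroidal RNA in 24 libraries was sequenced from SMART-Seq mRNA LP libraries. Per the submitters' processing notes and the study's methods, the authors checked reads with FastQC 0.11.5, pseudo-aligned them to GRCm39 with salmon 1.10.3, imported them with tximport and normalized them with DESeq2 1.44.0. The deposited signal values are normalized counts, that is estimated reads divided by factors for library size and transcript length, for 56065 genes (40409 above 0). They are not whole reads, since in each library between 31.1% and 77.2% of low values lay within 5% of a whole multiple of 1 read. Count models were therefore not used. Values summed to between 23704346 and 35094410 per library. No interval for counting error is given, because read depth was not recovered.

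Groups came from the sample labels. The members and gene lists were chosen with earlier results of these data known. Tests used limma 3.58.1 (R 4.3.3, trended variances). Values were taken to log2 after adding 1, for genes with a mean of at least 10, with Benjamini-Hochberg adjustment over all genes tested and a threshold of 0.05. For low genes, fold changes on this scale can differ from the fold of the means in either direction. Adding 1 pulls them toward 0, and single libraries near 0 push them away from it. Tlr1 with laser in wild type, at a log2 fold change of 3.27, had a mean only 5.46 times as high. Laser and the interaction were fitted on all 24 libraries, so the comparisons share one estimate of the spread, and genotype on the 8 without and the 16 with laser. The study used sex as a covariate, which the labels do not give. A member under the filter was compared by a two-sided exact permutation test. Named genes are the 10 members, Ceacam1, the called genes of each pathway list (at most 4 of lowest p per direction and comparison), its most abundant gene, and the 3 genes of highest r with each member. Ly96, Cd180 in wild type, Siglech, Ly6g, Mpo, Elane and other genes that did not pass are also named, and were chosen after their values were seen. Sequences and positions were read from GRCm39 with the GENCODE annotation, which matched 99.1% of identifiers, and transcripts were compared with blastn 2.17.0. The method was tested on simulated data. The settings varied were the pseudocount (0.5 or 10), the filter (off, or a mean of 50), the scaling (upper-quartile, quantile), the variance model (no trend, robust, array weights), a covariate of Y-linked genes, which libraries entered a fit, and each library omitted in turn. Leaving out libraries 14, 15 and 18 together and a term for the range of the library number were chosen after seeing the data. Python 3.11.15 was used for tables and figures.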

Additional observations from a re-analysis of the deposited data

Results flagged for a closer look

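Each of the 4 groups was searched for a library far from the rest, for the 10 genes, Ceacam1 and the summed myeloid and photoreceptor lists. Of 52 sets 6 held such a library. The rule flags about 1 in 20 by chance only for normally distributed values in independent sets. These were untransformed counts and the sets share their libraries, so the 6 cannot be read as more than chance. The Tlr9 set among the 6 was bound to be flagged, since 1 value above 0 among values of 0 always is. In Ceacam1-/- mice without laser, Tlr9 was at 2.89 normalized counts in library 23 and at 0 in the others, Myd88 was at 951 in library 28 (the others at most 529), Ceacam1 was at 1171 in library 28 (the others at most 508), and the summed photoreceptor list was at 570380 in library 23 (the others at most 26474). In wild type mice with laser, library 19 held 8367 normalized counts of Ceacam1 (the others at most 1776) and a photoreceptor sum of 207860 (the others at most 106671). Libraries 28 and 19 also had the highest surface epithelium sums of their groups (438646 and 124047).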

How the results depend on the processing

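Cd14 rose with laser in wild type mice under all alternatives and in Ceacam1-/- mice under all but a fit of only the 11 libraries compared (adjusted p = 0.140 by limma). The number of called members in wild type was 7 with array weights (6505 genes called, against 1053), between 3 and 6 under the other settings (787 to 2274 genes called, 6 members with the most genes) and 1 to 5 with a library left out (1 without library 21, 2 without library 22, with 479 to 1162 genes called). In Ceacam1-/- mice it was 4 with array weights (3551 genes, against 742), 0 with only the libraries compared (38 genes), 1 to 2 with a library left out (148 to 2488 genes) and 5 without libraries 14, 15 and 18 (2005 genes), where the median was 2.04. Signs turned for Tlr3 with laser in wild type (-0.057 to 0.35 with a library left out) and in Ceacam1-/- mice (0.21 with array weights, 0.14 without the 3 libraries), for Tlr4 in Ceacam1-/- mice (-0.016 with quantile normalization, -0.27 to 0.39 with a library left out), for the interaction of Myd88 (0.23 with array weights, 0.22 without the 3, -0.28 to 0.093 with a library left out), for Tlr1 (-0.079 to 1.83) and Tlr2 (-0.53 to 0.061) by genotype without laser, and by genotype with laser for Cd14 (0.11 without the 3) and Tlr6 (0.49 with array weights, 0.20 with the Y-linked covariate, 0.64 without the 3, -0.29 to 0.19 with a library left out). Without the 3 libraries, 5 of 9 members in all turned for the interaction and 8 of 9 for genotype with laser. None of these had passed the test, and the cause was not tested. No member was called for genotype or the interaction except 1, Cd14, by genotype with laser when the range of the library number was a term (-0.89, with 3863 genes called, against 4). Members with a positive value by genotype without laser numbered 4, and 1 to 8 with a library left out. With array weights 4 of 9 were positive for the interaction and 4 of 9 for genotype with laser, against 0. With a library left out, up to 2 of 9 were positive for the interaction (without library 18 or 21). Up to 2 of 9 were positive for genotype with laser (without library 14). No paired analysis was possible because the groups share no replicate numbers. Low values limit Tlr1, Tlr6, Tlr7, Tlr8 and Tlr9, whose untreated libraries held few normalized counts or 0.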

Other observations

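Library numbers in the labels split the laser libraries into 1 to 7 and 11 to 19, and what the numbers stand for is not given. In wild type mice, Cd14 was higher in each of the 3 laser libraries numbered 1 to 3 (1287 to 1918 normalized counts) than in each of the 6 numbered 11 to 19 (666 to 1058). In Ceacam1-/- mice the 4 laser libraries numbered 4 to 7 held 842 to 1489 and the 3 numbered 14, 15 and 18 held 303 to 399. Myd88 split the same way, at 1160 to 1241 and 798 to 1105 in wild type and at 1025 to 1493 and 504 to 870 in Ceacam1-/- mice. Tlr6 went the other way in wild type (13.8 to 43.3 and 46.6 to 75.2) and the same way in Ceacam1-/- mice (60.05 to 98.5 and 14.3 to 49.4). Untreated libraries are all numbered from 21 to 28, so the number and the laser label cannot be told apart.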
